A study of Mus musculus with 10 samples.

Results

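The genes described here are 41 extracellular matrix and fibrosis genes of mouse liver, taken by symbol from a list of collagens, basement membrane proteins, proteoglycans and matrix glycoproteins, crosslinking oxidases, metalloproteinases and their inhibitors, cytoskeletal genes of contractile cells, galectin-1 and transforming growth factor beta 1. Where a gene had several probe sets, the one brightest on average over 10 Affymetrix arrays stood for it, and 39 of the 41 were measured, of 18193 genes in all. Fbn1 was not listed in the probe table used here, and the probe sets of Loxl2 list several genes, so neither has a value. Of the 39 measured genes, 35 passed the filter on dim genes and were tested among 11032 genes.

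The tissues were dysplasia nodules of a Gnmt knockout (KO) female of 21 months, hepatocellular carcinomas (HCC, the labels' tumour) of a KO male of 18 months and a KO female of 14 months, the liver adjacent to each of these 3 lesions, KO liver of 11 weeks, and wild-type (WT) liver of 11 weeks. Each aged tissue was 1 array, and each genotype at 11 weeks had 1 female and 1 male array, each of RNA mixed from 3 mice. All mice were of strain 129/B6, and Gnmt encodes glycine N-methyltransferase, a liver enzyme that uses S-adenosylmethionine. There was no aged WT liver, so no lesion or aged tissue has a WT tissue of its own age, and the knockout is carried by both tissues of every lesion pair. The labels give no mouse numbers: lesion and adjacent liver were paired where sex and age matched, and how the allele was made is not given in the sources used here. Gnmt had a signal of 190 and 245.2 in the KO pools, 11.7 to 329.4 in the aged KO tissues, and 52140 and 59470 in the WT pools, and the 12 hepatocyte markers were above the filter on all 10 arrays.

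Extracellular matrix is the protein scaffold between and beneath cells. In healthy liver it is sparse, and in fibrosis hepatic stellate cells and portal fibroblasts turn into contractile myofibroblasts that secrete fibrillar collagen, with transforming growth factor beta as a main inducing signal. Basement membrane, the sheet under vessels and ducts, is built of type IV collagen and laminin joined by nidogen, and is scant along the open vessels of the liver lobule, the sinusoids. Metalloproteinases cut matrix, their tissue inhibitors (TIMPs) block them, and lysyl oxidases crosslink collagen and elastin.

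Signals are the authors' linear intensities. Differences are on the scale of log2(signal + 16.8), the added constant being the 20th percentile of all values, which understates changes of dim genes. A difference was called where the limma p adjusted over the 11032 genes was below 0.05. Signals of different genes come from different probe sets and are not compared with each other.

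At least 2-fold higher signals than in adjacent liver were found for 4 of the 5 fibrillar collagens in the female HCC and in the nodules, and for none of the 5 in the male HCC. Of the 7 basement membrane genes, 5 were at least 2-fold higher in the female HCC, 1 in the male HCC and 4 in the nodules. Whether the pairs differ from each other was not tested. In the female HCC, 18 of the 39 members were at least 2-fold higher than in adjacent liver, against 10.8% of all 18193 genes. In the nodules 21 of 39 were at least 2-fold higher, against 10.6% of all genes. In the male HCC there were 6 of 39, against 9.67%, namely Nid1, Sparc, Thbs1, Mmp13, Mmp14 and Timp1. No member was 2-fold lower in any of the 3 pairs, where 7.38%, 9.9% and 9.17% of all genes were lower in the female HCC, the male HCC and the nodules. The median difference of the 39 members was 0.91 in the female HCC, 0.21 in the male HCC and 1.03 in the nodules, while that of all genes was 0.03, -0.03 and -0.01 in the same order. Each of these is 1 array a side and has no test of its own.

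**Figure D1:**
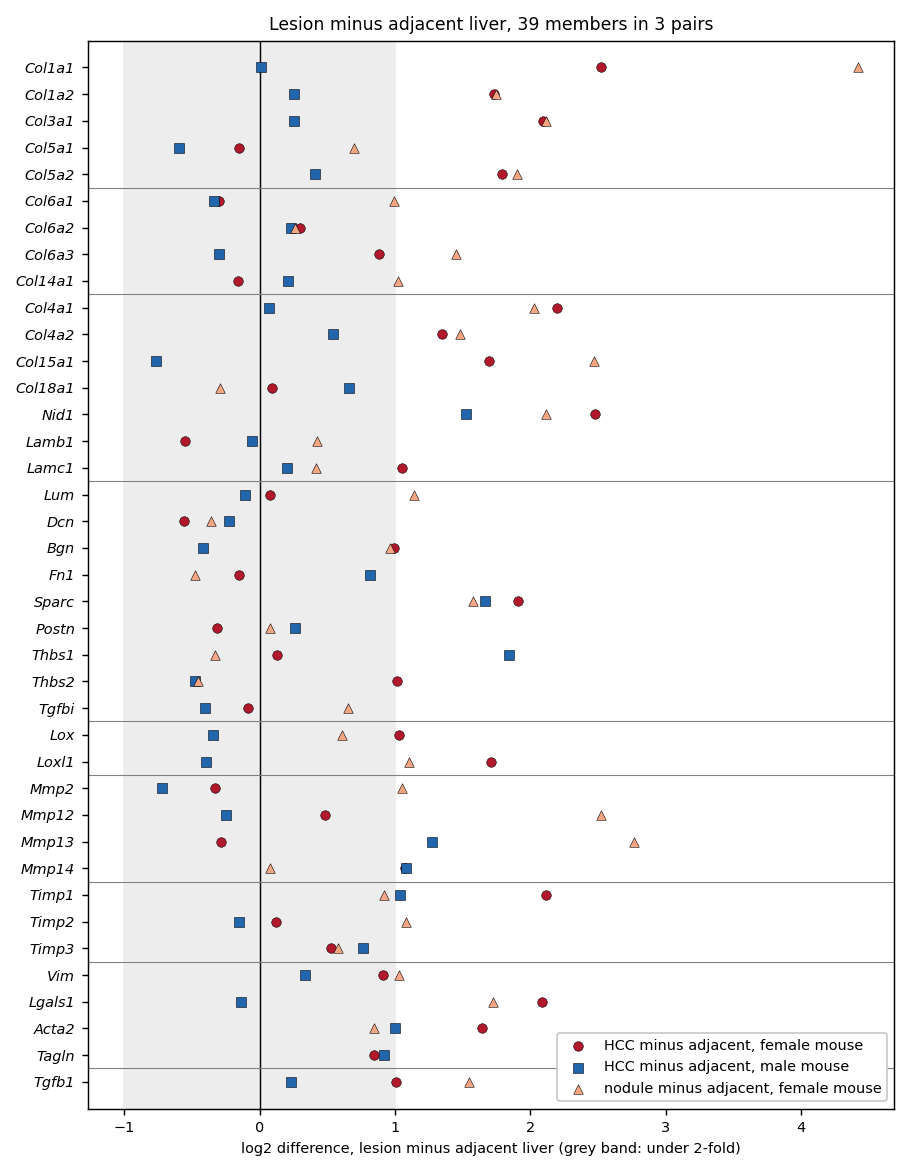
Difference between lesion and adjacent liver for the 39 measured members, on the log2 scale, in the female HCC (circles), the male HCC (squares) and the nodules (triangles); lines part the role groups and the grey band marks differences under 2-fold. Nid1 and Sparc lie right of the band in all 3 pairs, whereas Col1a1 is at 2.53, 0.01 and 4.42.

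Over the 3 pairs with the mouse as a term, no member was called, and only Cpe (carboxypeptidase E), no matrix gene, was called of all genes (0.00906% higher, 0% lower). At an unadjusted limma p below 0.05, 16 of the 35 tested members were higher in lesions and none was lower, against 5.83% and 4.11% of all tested genes. By direction alone, 17 of 39 members were higher in all 3 lesions, against 14.8% of all genes, and 1, Dcn, was lower in all 3, against 15.2%. Only Nid1 and Sparc were at least 2-fold higher in all 3 pairs, as were 0.489% of all genes. Each had 1 further probe set above the filter: that of Sparc gave 1.62 in the female HCC, 1.55 in the male HCC and 1.32 in the nodules, and that of Nid1 gave 2.01, 2.62 and 0.42, so under 2-fold in the nodules. In 6 members (Col1a1, Col4a2, Sparc, Vim, Tagln and Tgfb1) every lesion was above every adjacent liver, against 4.79% of all genes. The median of the members was 0.68, against 0.00 for all genes.

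The 2 HCC pairs taken by themselves gave 9 called genes, none of them a member (0.0635% of tested genes higher and 0.0181% lower). The 12 members with an unadjusted p below 0.05 were all higher in HCC, against 4.33% of tested genes higher and 3.32% lower. By the probe sets used, Nid1, Sparc, Mmp14 and Timp1 were at least 2-fold higher in both HCC, against 1.86% of all genes.

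Member calls over lesions appeared when the male HCC pair was left out. Without it, the same model over the female HCC and the nodules called 9 of the 35 members, all higher, where 1.11% of tested genes were called higher and 0.499% lower. They were Nid1, Col3a1, Col4a1, Lgals1, Col1a1, Sparc, Col1a2, Col4a2 and Col5a2, with differences of 1.42 to 3.47 and adjusted p from 0.00401 to 0.0452. This fit has 1 residual degree of freedom in place of 2, and such fits let through more false calls on simulated data. Sparc differed by 1.74 (SE 0.25) without the male and by 1.72 (SE 0.18) with it, so its call came with the changed fit and hardly any change in the difference. Leaving out the nodule pair or the female HCC pair, with the same 1 residual degree of freedom, gave 0 members called. In that male the adjacent liver was itself high: 15 of 39 members were at least 2-fold above the liver adjacent to the female HCC, against 13% of all genes, and Mmp13 was the 1 member at least 2-fold below it, against 10.3%. Sex, age and mouse cannot be told apart here.

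**Figure D2:**
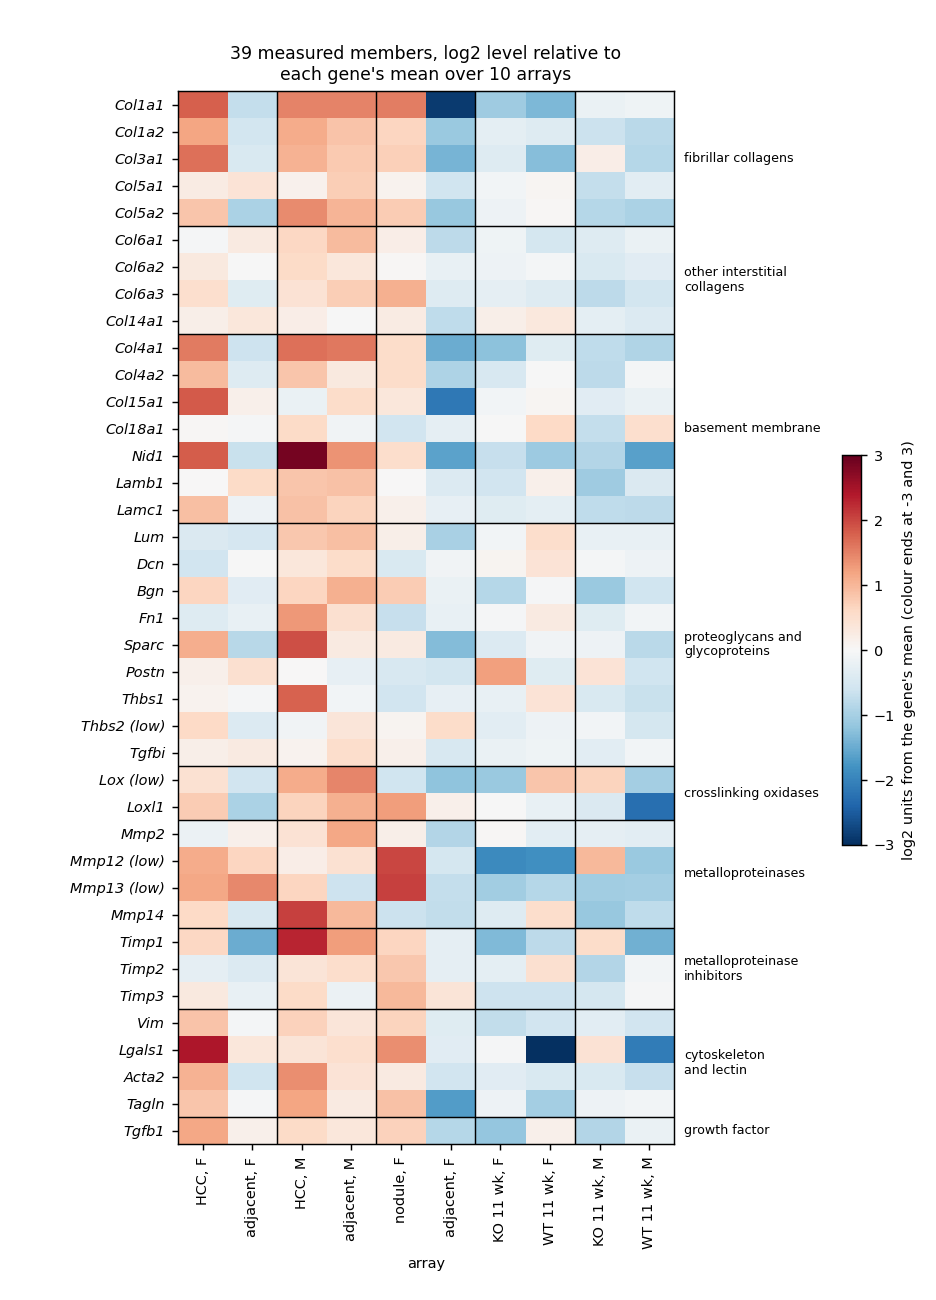
Levels of the 39 measured members on the 10 arrays, in log2 units from each gene's own mean over the arrays, with role groups parted by horizontal lines and lesion pairs and sexes by vertical lines; (low) marks the 4 members below the filter. The adjacent liver of the male is coloured much as its HCC is for Col1a1 and Col4a1, while the adjacent liver of the nodules is the lowest array for Col1a1, Col1a2, Col3a1, Col4a1 and Col15a1.

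The 5 fibrillar collagens form the tensile fibres of scar. By the probe sets used, Col1a1, Col1a2, Col3a1 and Col5a2 were at least 2-fold higher in both female lesions, and Col5a1 was not. Col1a1, the main chain of type I collagen, had a signal of 977.2 in the female HCC, 786.6 in the male HCC and 809.4 in the nodules, against 155.9, 779.7 and 21.8 in the adjacent livers. By this probe set the 3 lesions lay close together, and the adjacent livers were spread widely, with that of the male level with its tumour. The difference over 3 pairs was 2.32 with a standard error (SE) of 0.74 and an adjusted limma p of 0.390. The further probe set of Col1a1 above the filter gave 2.31 in the female HCC, 0.59 in the male HCC and 3.58 in the nodules. By that one the male HCC was above its adjacent liver, though under 2-fold.

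Col1a2, the second chain of type I collagen, had 2405.9, 2270.3 and 1636.6 in the 3 lesions, against 712.5, 1904.2 and 475.7 in the adjacent livers, a difference of 1.24 (SE 0.33, adjusted p = 0.327). Col3a1, the type III collagen of early scar, had 6252.9, 4084.2 and 3284.2 in lesions, against 1450.9, 3428.8 and 744.1 in adjacent liver, a difference of 1.49 (SE 0.38, adjusted p = 0.326). In both genes each lesion exceeded its own adjacent liver, with the smallest gap in the male. The further probe set of Col3a1 above the filter gave 2.10 in the female HCC, 0.005 in the male HCC and 0.44 in the nodules. By that probe set Col3a1 was under 2-fold in the nodules. Col5a2, a type V chain that sits inside type I fibres, differed by 1.79 in the female HCC, 0.41 in the male HCC and 1.91 in the nodules. Its partner chain Col5a1 differed by -0.15, -0.60 and 0.69 in the same order, so its direction was not the same in all pairs. The group medians were 1.79, 0.25 and 1.91.

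At 11 weeks the fibrillar collagens gave no called difference between KO and WT. Col3a1 had 1500.1 in KO females and 2267.3 in KO males, against 809.7 in WT females and 1086.3 in WT males. Both KO pools were above both WT pools, a difference of 0.96 (SE 0.22) with an adjusted p of 0.0892. The further probe set of Col3a1 above the filter gave 0.64. The adjusted limma p was 0.434 when probe sets with the suffixes _a_, _s_ and _x_ were avoided, which brought in that further probe set. It was 0.0417 with quantile normalization and 0.0422 with centring on the 75th percentile. Col1a1 had 120.1 and 229.8 in KO females and males, against 95.9 and 245.5 in WT females and males (difference 0.10, SE 0.36). For Col1a1 both male pools were above both female pools by this probe set. Its further probe set above the filter gave a KO minus WT difference of 0.66.

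The bases before the start of Col1a2 and Col3a1 are shown because both genes followed the same order of arrays in the lesion pairs; they are the 250 bases upstream in the RefSeq promoter table for GRCm38.p6, at chr6:4505368-4505617 and chr1:45311288-45311537, both on the plus strand, and overlap no other annotated gene. Capitals mark matches, on either strand, to the CCAAT motif, the TATAAA motif, the TGANTCA motif or the GGGCGG motif.
Col1a2: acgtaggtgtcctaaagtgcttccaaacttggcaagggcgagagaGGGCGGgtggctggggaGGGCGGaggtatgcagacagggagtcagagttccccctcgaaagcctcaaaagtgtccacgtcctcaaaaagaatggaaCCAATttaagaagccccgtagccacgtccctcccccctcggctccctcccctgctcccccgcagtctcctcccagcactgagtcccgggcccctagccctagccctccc
Col3a1: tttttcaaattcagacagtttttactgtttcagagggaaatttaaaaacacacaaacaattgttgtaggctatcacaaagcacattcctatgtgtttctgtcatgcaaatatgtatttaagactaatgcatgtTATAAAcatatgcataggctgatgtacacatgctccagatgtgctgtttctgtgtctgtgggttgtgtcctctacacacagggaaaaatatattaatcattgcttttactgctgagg
Col1a2 holds GGGCGG starting 205 and 188 bases before the start and CCAAT starting 109 bases before it, while Col3a1 holds only TATAAA, 117 bases before it. None of these motifs overlaps another in the windows printed.

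Col6a1, Col6a2 and Col6a3, the chains of the beaded type VI filaments, and Col14a1, which coats type I fibres, had a median difference of 0.07 in the female HCC, -0.05 in the male HCC and 1.01 in the nodules. Col6a3 had 542.3, 511.8 and 798.3 in the female HCC, male HCC and nodules, against 286.5, 633.5 and 281.9 in their adjacent livers. It was higher in the female lesions and lower in the male one. In KO against WT liver none of the 4 reached an unadjusted p below 0.05, and by the probe sets used their differences ran from -0.11 to 0.11. Further probe sets above the filter lay outside that range, with 1.05 for Col6a2 and -0.40 for Col14a1.

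Among the 7 basement membrane genes, Nid1 (nidogen-1, which ties laminin to type IV collagen) was higher in every lesion. Its signal was 4111.5 in the female HCC, 8566.1 in the male HCC and 1667.7 in the nodules, against 724.4, 2961.1 and 371 in the adjacent livers. Each lesion was more than 2-fold above its own adjacent liver, although the adjacent liver of the male exceeded the nodules. The difference was 2.04 over the 3 pairs (SE 0.23, adjusted p = 0.0806) and 2.002 over the 2 HCC pairs (SE 0.31, adjusted p = 0.0640). In the HCC comparison Nid1 and Sparc passed the threshold when the filter on dim genes was dropped, with adjusted limma p of 0.0482 and 0.0389. Both also passed when probe sets with the suffixes _a_, _s_ and _x_ were avoided, at 0.0240 for each. Under the other alternatives the adjusted p ran from 0.0584 to 1 for Nid1 and from 0.0539 to 1 for Sparc, 1 being the value with no replicate block. With the mean of all probe sets the difference of Sparc was 0.98 (adjusted p = 0.352).

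Col4a1 and Col4a2 encode the chains of the main type IV collagen. Col4a1 had 3025.8, 3213.7 and 1484.2 in the female HCC, male HCC and nodules, against 647.4, 3069.5 and 351.1 in adjacent liver. As with the probe set used for Col1a1, the adjacent liver of the male was level with its tumour. Col4a2 had 1099.2, 1007 and 832.4 in lesions, against 421.2, 687 and 286.8 in adjacent liver, and all 3 lesions were above all 3 adjacent livers. Over the 3 pairs the differences were 1.43 for Col4a1 (SE 0.42, adjusted p = 0.374) and 1.13 for Col4a2 (SE 0.25, adjusted p = 0.268).

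These 2 genes lie head to head on chromosome 8 and are read in opposite directions. By the starts in the RefSeq promoter table their first 22 bases, chr8:11312805-11312826 in GRCm38.p6, are the same stretch read on the plus strand for Col4a2 and on the minus strand for Col4a1, and it is shown for that reason. The gene spans in the annotation overlap by 85 bases, since Col4a1 has a further start.
Col4a2: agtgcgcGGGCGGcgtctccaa
Col4a1: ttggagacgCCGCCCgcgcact
Capitals mark GGGCGG, read on the strand of Col4a2. In both genes the male HCC had the smallest difference of the 3 pairs.

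Of the other basement membrane genes, Col15a1 (type XV collagen) had 569.9 in the female HCC, 125 in the male HCC and 188.9 in the nodules, against 164.2, 224.3 and 20.3 in adjacent liver. It was higher in the 2 female lesions and lower in the male one. Lamc1, the gamma chain of common laminins, was higher in all 3 lesions, by 1.05, 0.20 and 0.42. Lamb1, a laminin beta chain, differed by -0.55, -0.05 and 0.42 by the probe set used. Its further probe set above the filter gave 0.42, 0.30 and 0.31, so higher in all 3 lesions. Col18a1, whose cleaved end is endostatin and which hepatocytes make, differed by 0.09, 0.66 and -0.30.

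In KO liver of 11 weeks, 6 of the 7 basement membrane genes had a negative difference from WT and Nid1 a positive one, but none was called. Of all 18193 genes, 8249 had a positive difference. In both sexes 4 of the 7 were lower and 1 higher, against 33.5% and 26.3% of all genes. Col4a1 and Lamc1 were lower in females only, with 0.12 and 0.01 in males. For Nid1 the probe set used gave 0.56 and the further one above the filter -0.61. Col18a1 had 10551 and 6474 in KO females and males, against 16183.5 and 14917.3 in WT females and males, so both KO pools were below both WT pools (difference -0.91, SE 0.21, adjusted p = 0.0923). Col4a2 had 397.7 and 317.9 in KO pools, against 555.2 and 537.9 in WT pools, with a difference of -0.60 (SE 0.25, adjusted p = 0.248). Endothelial marker genes were lower in the same arrays: the 12 markers summed to signals of 5926.8 and 5984.5 in KO females and males, against 14627.5 and 11129.8 in WT females and males, 11 of 12 had a negative difference, and Stab2 (-1.55) and Oit3 (-1.35) were called. Their part in these differences was not tested. In bulk tissue, fewer cells of a type and less RNA per cell cannot be told apart.

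**Figure D3:**
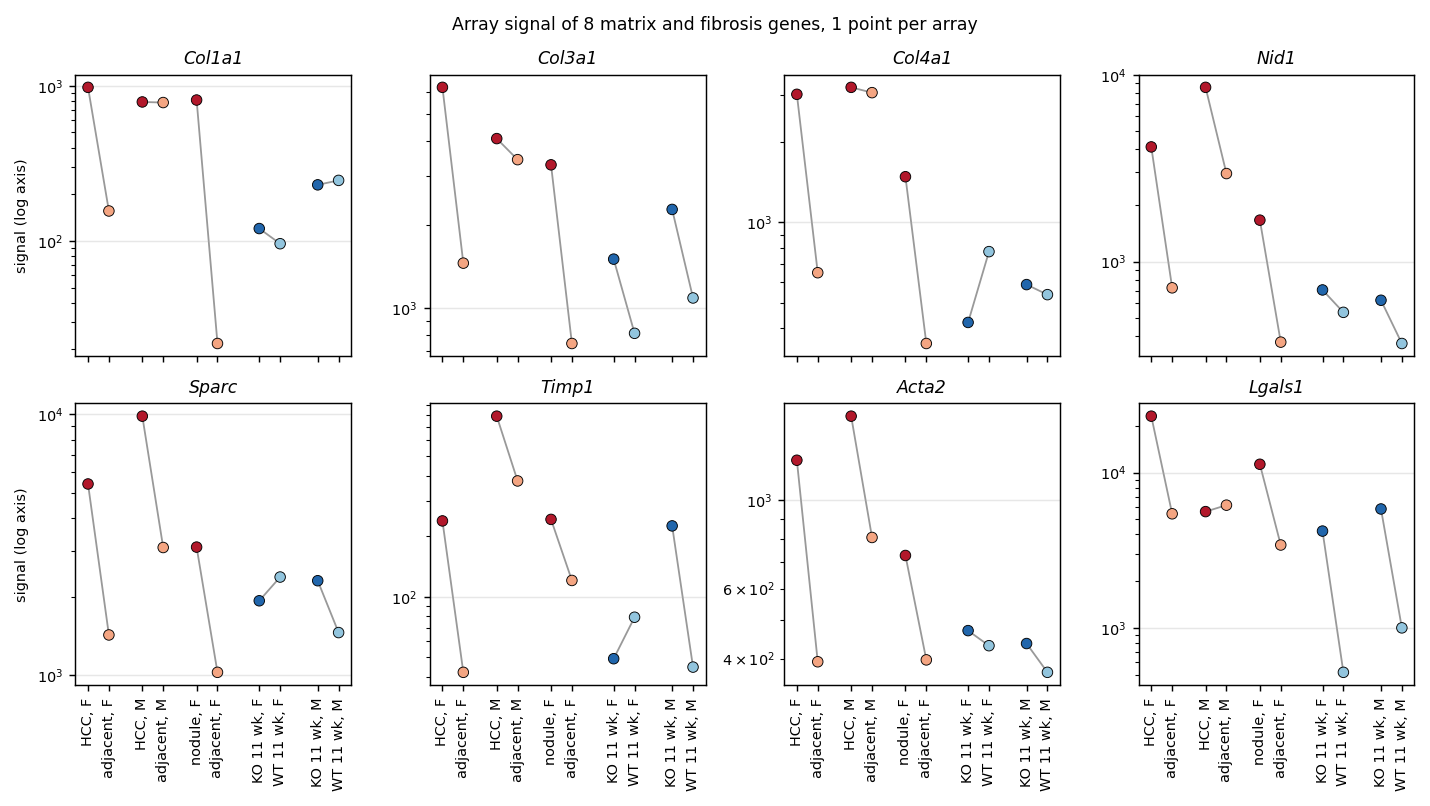
Signal of 8 members on every array, on a log axis that does not start at 0, with lines joining each lesion (dark red) to its adjacent liver (light red) and each KO pool (dark blue) to the WT pool of its sex (light blue). Nid1 and Sparc drop steeply to adjacent liver in all 3 pairs, Col1a1 and Col4a1 are level in the male pair (786.6 and 779.7 for Col1a1), and Lgals1 is far higher in KO than in WT pools.

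Sparc (osteonectin, a collagen-binding glycoprotein) was the second member at least 2-fold higher in every lesion. Its signal was 5411 in the female HCC, 9842.6 in the male HCC and 3100 in the nodules, against 1427.9, 3088.7 and 1026.7 in the adjacent livers. All 3 lesions were above all 3 adjacent livers, with the nodules barely above the male's adjacent liver. The difference was 1.72 over 3 pairs (SE 0.18, adjusted p = 0.0691) and 1.79 over the HCC pairs (SE 0.27, adjusted p = 0.0621).

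The bases before the starts of Nid1 and Sparc are shown because only these members were at least 2-fold higher in every lesion; they are the 250 upstream bases in the same table, at chr13:13437352-13437601 on the plus strand and chr11:55420081-55420330 on the minus strand. The first 200 bases of the Nid1 window lie in an annotated pseudogene, Gm7426, and the Sparc window overlaps no other gene.
Nid1: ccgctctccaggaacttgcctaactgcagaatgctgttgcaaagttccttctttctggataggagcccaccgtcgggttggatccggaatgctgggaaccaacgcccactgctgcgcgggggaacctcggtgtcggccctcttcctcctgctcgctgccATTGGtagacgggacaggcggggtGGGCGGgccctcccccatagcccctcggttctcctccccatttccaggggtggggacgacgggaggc
Sparc: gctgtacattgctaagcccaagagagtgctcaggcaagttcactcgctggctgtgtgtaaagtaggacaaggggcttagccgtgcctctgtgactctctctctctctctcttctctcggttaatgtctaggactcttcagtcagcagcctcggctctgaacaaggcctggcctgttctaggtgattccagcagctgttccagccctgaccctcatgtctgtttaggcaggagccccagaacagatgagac
Nid1 holds CCAAT on the opposite strand, 91 bases before the start, and GGGCGG 67 bases before it, while none of the 4 motifs is in the Sparc window. CCAAT is in 33.8% of the table's 32851 windows, TATAAA in 12.4%, TGANTCA in 6.75% and GGGCGG in 32.7%. The table held 31 windows for 27 of the members, and 35.5%, 16.1%, 9.68% and 51.6% of those 31 held the same motifs.

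Among the small proteoglycans, Dcn (decorin, which binds and spaces collagen fibres) had 5488.3, 10300.8 and 5895.1 in the female HCC, male HCC and nodules, against 8103.3, 12045.4 and 7553.9 in adjacent liver. It was the only member lower in every lesion, a difference of -0.38 (SE 0.18, adjusted p = 0.548). Bgn (biglycan, its close relative) differed by 0.99 in the female HCC, -0.42 in the male HCC and 0.96 in the nodules. Lum (lumican, of the same family) differed by 0.07, -0.11 and 1.14.

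Fn1 (fibronectin, which hepatocytes also secrete into plasma) had 21955.9, 70288.2 and 17490.1 in the 3 lesions, against 24356.5, 39902.6 and 24374 in adjacent liver. By this probe set it was above adjacent liver only in the male. The further probe set of Fn1 above the filter gave 0.23 in the female HCC, 0.93 in the male HCC and -0.42 in the nodules. Thbs1 (thrombospondin-1, an activator of latent TGF-beta) was high in the male HCC alone, at 461.5, against 72.4 to 170.6 on the other 9 arrays. Tgfbi, a TGF-beta-induced adhesion protein, differed by -0.09, -0.41 and 0.66 in the female HCC, male HCC and nodules. Thbs2, below the filter, had 146.9, 82.6 and 97.9 in lesions, against 64.2, 122 and 140.8 in adjacent liver.

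Postn (periostin, a matricellular protein of activated fibroblasts) had 1808.8 in KO females and 1016 in KO males, against 589.3 in WT females and 496.1 in WT males, and was at least 2-fold higher in KO in both sexes, a difference of 1.30 (SE 0.25, adjusted p = 0.0580). Postn and Lgals1 were the 2 of 39 members of which that held, against 2.13% of all genes. Postn passed the threshold with quantile normalization (adjusted p = 0.0211), with centring on the 75th percentile (0.0242) and with probe sets without _s_ or _x_ (0.0406). Under the other alternatives the adjusted p was 0.0545 to 0.903, among them 0.102 with the mean of all probe sets, 0.213 without the intensity trend and 0.177 without the sex term. In lesions its differences were -0.32, 0.26 and 0.08, all under 2-fold. In aged adjacent KO liver it was lower than in young KO liver in each sex-matched pairing, a difference of -1.001 (SE 0.36, adjusted p = 0.391).

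Lgals1 (galectin-1, a secreted lectin that binds matrix glycoproteins and is found in activated stellate cells) was the only member called in KO against WT liver, where 0.707% of tested genes were called higher and 0.743% lower. Its signal was 4197.8 in KO females and 5826.4 in KO males, against 516.7 in WT females and 999.2 in WT males. Both KO pools were at least 2-fold above both WT pools, and the difference was 2.75 (SE 0.23, adjusted p = 0.0101). The size stayed at 2.06 to 3.45 when any single array was left out of a model over all 10 arrays. The call was lost without the intensity trend (adjusted p = 0.193), without the sex term (0.0608), in the model over all 10 arrays (0.229) and in that model with any array left out (0.0972 to 0.903). The 3' to 5' signal ratio of Actb, a sign of RNA quality, parted the same pools: it was 3.38 and 3.18 in KO females and males, against 2.624 and 2.597 in WT females and males. That of Gapdh was 0.955 and 1.09 in KO females and males, against 0.938 and 0.982 in WT females and males. The part of RNA quality in the KO and WT differences was not tested.

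In lesions Lgals1 had 23075.3 in the female HCC, 5602.7 in the male HCC and 11307.6 in the nodules, against 5424.4, 6165 and 3414.3 in adjacent liver. It was higher in the 2 female lesions, by 2.09 and 1.72, and slightly lower in the male, by -0.14. All 6 aged KO tissues were above both WT pools of 11 weeks.

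By the probe sets used, the other 3 genes of contractile and mesenchymal cells were higher in each lesion. Acta2 (smooth muscle actin, the usual myofibroblast marker) had 1261.3, 1627.8 and 726.7 in the female HCC, male HCC and nodules, against 392.8, 806.6 and 397.1 in adjacent liver, a difference of 1.16 (SE 0.23, adjusted p = 0.211). Tagln (transgelin, an actin-binding protein of smooth muscle) had 360.5, 468.1 and 374, against 193.2, 239.9 and 49.6 in adjacent liver (difference 1.44, SE 0.40). Vim (vimentin, the intermediate filament of mesenchymal cells) differed by 0.91, 0.33 and 1.03. A further probe set of Vim above the filter gave -0.29 in the male HCC, so lower there, and another gave 0.22. By the probe sets used, every lesion lay above every adjacent liver in Tagln and Vim. In Acta2 the nodules lay below the adjacent liver of the male. At 11 weeks Acta2 had 470.4 and 436.5 in KO females and males, against 431.1 and 369.5 in WT females and males, a difference of 0.18 (SE 0.24).

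Remodelling genes went several ways. Mmp14 (a membrane-anchored collagenase) had 1679.6 in the female HCC, 4701.3 in the male HCC and 700.7 in the nodules, against 787.6, 2212 and 663.5 in adjacent liver. By this probe set both HCC were more than 2-fold higher and the nodules were level. Its further probe set above the filter gave 0.63, 1.175 and -0.19 in the same order, so under 2-fold in the female HCC. Mmp2, the gelatinase that MMP14 activates, differed by -0.33, -0.72 and 1.05. Of the 2 dim proteases, Mmp12 (macrophage elastase) had 194.4, 94.9 and 372.7 in lesions, against 134.5, 115.9 and 50.9 in adjacent liver. Mmp13, a collagenase, had 68.4, 43 and 141.9 in lesions, against 87.2, 7.9 and 6.5 in adjacent liver, and 1.6 to 4.3 on the 4 arrays of 11 weeks.

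Timp1, the inducible inhibitor, had 238.2, 790 and 242.4 in the female HCC, male HCC and nodules, against 42.1, 376.4 and 120.5 in adjacent liver. Each lesion was above its own adjacent liver, a difference of 1.36 (SE 0.33, adjusted p = 0.306), and the adjacent liver of the male exceeded both female lesions. Timp3, which is bound to matrix, was higher in every lesion by 0.53, 0.76 and 0.58. Timp2, by the probe set used, was higher in the nodules by 1.08 and near level in the HCC (0.12 and -0.16). Its further probe sets above the filter gave -0.36, 0.45, 0.22 and -0.06 in the nodules, so each was under 2-fold and their directions were mixed.

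In KO liver of 11 weeks, Timp1 had 49.2 in KO females and 225 in KO males, against 79.1 in WT females and 44.7 in WT males, so the sexes went opposite ways. Timp2 had 472.6 and 312 in KO females and males, against 817.3 and 553.3 in WT females and males (difference -0.78, SE 0.24, adjusted p = 0.152). Both KO pools were below both WT pools.

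Of the crosslinking oxidases, Loxl1 (which acts chiefly on elastin) had 291.1, 271 and 411.9 in the female HCC, male HCC and nodules, against 77.3, 361.3 and 182.7 in adjacent liver. It was at least 2-fold higher in the 2 female lesions. At 11 weeks it had 161.7 and 116.3 in KO females and males, against 137.4 and 20.9 in WT females and males, a difference of 1.02 (SE 0.59, adjusted p = 0.393), with the WT male pool far below the other 3. Lox, below the filter, ran from 8.3 to 142.6 over the 10 arrays.

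Tgfb1, the growth factor of the set, had 819.1, 540.1 and 591.7 in the female HCC, male HCC and nodules, against 397.9, 457.1 and 191.4 in adjacent liver. All 3 lesions lay above all 3 adjacent livers, a difference of 0.93 (SE 0.29, adjusted p = 0.384). At 11 weeks the difference was the other way: Tgfb1 had 150.4 and 187.6 in KO females and males, against 396.7 and 311.5 in WT females and males (difference -0.99, SE 0.31, adjusted p = 0.162).

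Over all members, KO and WT liver of 11 weeks did not part in one direction. At an unadjusted limma p below 0.05, 3 of 35 members were higher in KO (Lgals1, Postn and Col3a1), against 9.33% of tested genes, and 6 were lower (Col18a1, Timp2, Tgfb1, Bgn, Mmp14 and Col4a2), against 10.2%. The median of the members was -0.06, as was that of all measured genes. In both sexes 8 of 39 members were higher and 13 lower in KO, against 26.3% and 33.5% of all genes.

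**Figure D4:**
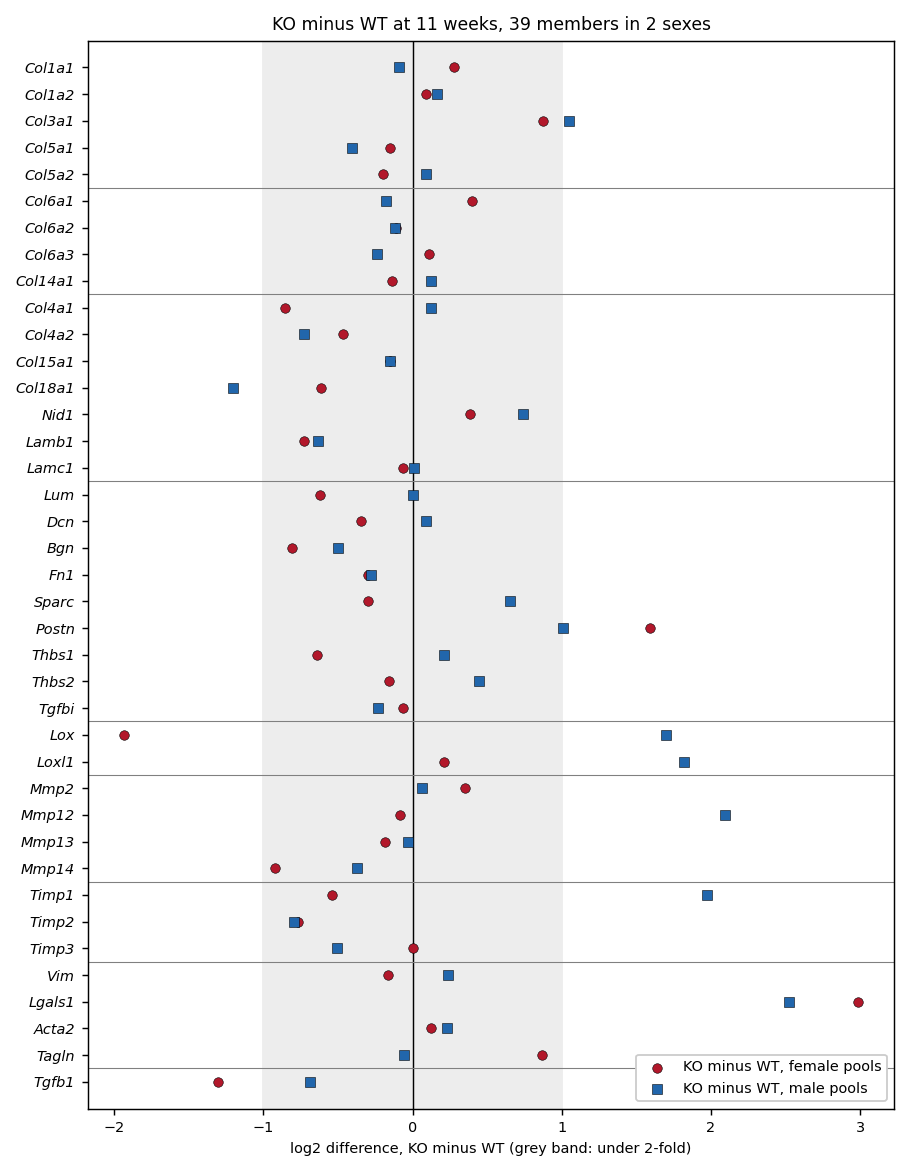
Difference between KO and WT liver at 11 weeks for the 39 measured members, on the log2 scale, in female pools (circles) and male pools (squares); the grey band marks differences under 2-fold. Only Lgals1 and Postn are right of the band in both sexes, while Lox, Timp1, Loxl1 and Mmp12 differ widely between the sexes.

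Aged adjacent KO liver was compared with young KO liver, with sex as a term, and no gene was called, members included (0% in either direction), while 1355 of 11032 genes had an unadjusted limma p below 0.05. The members' median was 0.40, against 0.09 for all measured genes, and it was -0.008 without the adjacent liver of the male. Bgn had 2669.5, 7099.8 and 2924.9 in the liver adjacent to the female HCC, the male HCC and the nodules, against 1853 and 1558.3 in young KO females and males. All 3 aged livers were above both young pools, a difference of 1.27 (SE 0.37, adjusted p = 0.386). Bgn, Lamb1, Vim and Tgfb1 were the 4 members higher at an unadjusted p below 0.05, against 7.69% of tested genes, and Postn the 1 lower, against 4.6%. Hybridisation control spots parted the same arrays: the BioC to BioB ratio, each by its 3' probe set, was 1.45 to 1.84 in the 6 aged arrays and 3.90 to 5.09 in the 4 young ones, so age and array processing cannot be told apart.

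Females were compared with males at 11 weeks with genotype as a term, and no member was called (0.163% of tested genes higher in females and 0.109% lower). In both genotypes 24 of 39 members were higher in females, against 29.9% of all genes, and 7 were lower, against 24.3%. Mmp14 had 844.6 in KO females and 1613.2 in WT females, against 498.3 in KO males and 650.3 in WT males, the lowest p of the members (difference 1.02, SE 0.25, adjusted p = 0.299). Col1a1 had the largest tested difference the other way, -1.03 (SE 0.36, adjusted p = 0.479). The members' median was 0.26. It was -0.15 in the model over all 10 arrays, but the sex term there also covers the aged tissues, so that value is not of 11 weeks alone.

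Other genes of the pathway were read from lists of matrix proteins, collagen processing enzymes, proteases, TGF-beta and PDGF signalling genes and matrix receptors. In lesions against adjacent liver none of the 82 tested genes of these lists was called over 3 pairs, and 15 had an unadjusted p below 0.05, 14 of them higher and 1 lower, where 5.83% of all tested genes were higher and 4.11% lower. Itga6, the alpha 6 integrin that binds laminin, was the 1 of the 82 called in HCC, where 0.0635% of tested genes were called higher: it had 2486.8 and 1167.4 in the female and male HCC, against 189.5 and 208.2 in adjacent liver (difference 3.00, SE 0.35, adjusted p = 0.0342). In the nodules Itga6 had 1526.8, against 314.6 in adjacent liver. Plat, tissue plasminogen activator, differed by 2.02 over the 3 pairs (adjusted p = 0.251). Inhba, the activin subunit of the TGF-beta family, differed by 1.92 (adjusted p = 0.274). Of the same lists, 1 gene was called in KO against WT liver: Prelp, a leucine-rich proteoglycan, had 879.3 and 475.3 in KO females and males, against 2037.7 and 1263.8 in WT females and males (difference -1.29, SE 0.23, adjusted p = 0.0496), where 0.743% of tested genes were called lower.

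**Figure D5:**
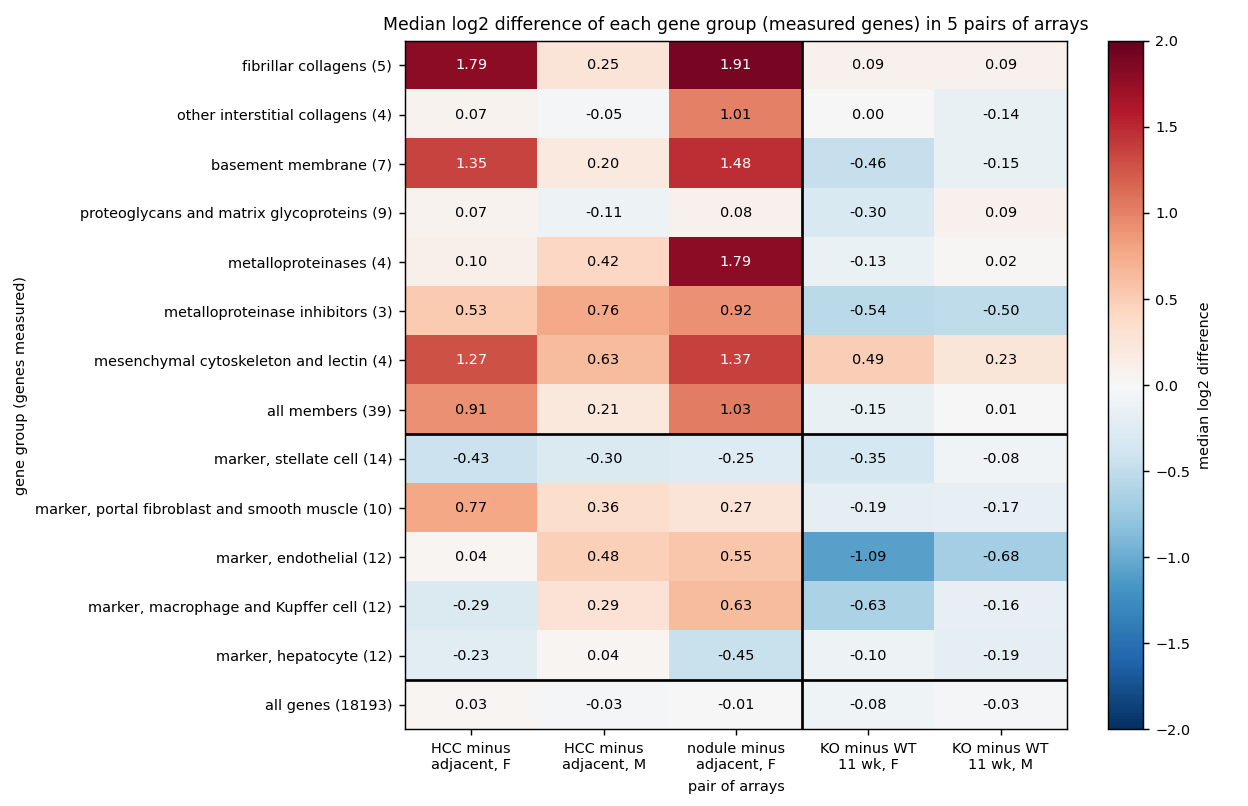
Median log2 difference of each role group of members with at least 3 genes, of all 39 members, of 5 cell type marker lists and of all genes in 5 pairs of arrays (lesion minus adjacent liver on the left, KO minus WT on the right), with the number of genes measured in parentheses. Fibrillar collagens reach 1.79 and 1.91 in the female HCC and the nodules, where the stellate cell markers are at -0.43 and -0.25.

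Markers of the cells that make matrix did not all move with it. The 14 stellate cell markers had a median difference of -0.43 in the female HCC, -0.30 in the male HCC and -0.25 in the nodules, with 3, 3 and 5 of 14 above 0. Reln was lower in all 3 lesions, whereas Des and Pdgfrb were higher in both female lesions and lower in the male HCC. Pdgfrb had 864.6, 933.1 and 583.4 in the female HCC, male HCC and nodules, against 484.7, 1151.6 and 326.5 in adjacent liver. Signals of the 14 markers summed to 13534.2, 20381 and 12284.2 in the 3 lesions, against 19781.2, 21490.3 and 14467.4 in adjacent liver. The 10 portal fibroblast and smooth muscle markers had medians of 0.77, 0.36 and 0.27 and summed to 2120.9, 1850.4 and 1405.6 in lesions, against 1053.6, 1205 and 1032.6 in adjacent liver. The 12 macrophage markers had medians of -0.29, 0.29 and 0.63, with 5, 10 and 9 of 12 above 0. They summed to 25587.5, 41120.4 and 22964.3 in lesions, against 23609.9, 25259.7 and 12211.2 in adjacent liver. Bright genes weigh most in such sums, and Mpeg1 alone had 7970.5, 15938.8 and 6215.7 in lesions, against 3273.4, 5003.7 and 1805.2. The 12 endothelial markers had medians of 0.04, 0.48 and 0.55, with 7, 12 and 12 of 12 above 0. Fitted over the 3 pairs together all 12 differences were positive, none called. The sums were 6930.8, 16144.8 and 8632.3 in lesions, against 6486, 10902.2 and 5857 in adjacent liver. The 7 cholangiocyte markers summed to 1646.7, 985.6 and 808.6 in lesions, against 672.8, 1294.3 and 843.7 in adjacent liver, and none of the 6 mesothelial markers passed the filter on dim genes. The 12 hepatocyte markers had medians of -0.23, 0.04 and -0.45, with 4, 6 and 0 of 12 above 0, and summed to 515697, 781573 and 549812 in lesions, against 628932, 769466 and 740266 in adjacent liver. Both female lesions were thus below their adjacent livers in this sum and the male HCC was not. The Actb ratio was 3.46, 3.00 and 2.46 in lesions, against 2.61, 3.62 and 2.57 in adjacent liver. The part of any of these cell types, or of RNA quality, in the members' differences was not tested.

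Where a member had further probe sets above the filter, 20 members having at least 2, these mostly pointed the same way as the probe set used. Of 28 such further probe sets, 21 had the same direction in KO against WT, 22 in the female HCC, 24 in the male HCC and 25 in the nodules.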

How the data were processed

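RNA of 10 mouse liver tissues was hybridised to 10 Affymetrix arrays. The deposited values are linear intensity, which the authors made with the GCOS software, per the submitters' processing notes. Its version and settings are not given in the sources used here. The 2% trimmed mean of every array was 500. There were 45101 probe sets, including 64 controls: 34945 listed 1 gene, 932 several and 9211 were not listed. Of the 34945, 34741 matched the gene table.

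Signals were taken to log2 after adding 16.8. Each gene was represented by the probe set with the highest mean log2 value, and genes with that mean above the log2 of a signal of 91 (the median of all values) plus the constant were tested, 11032 of 18193. Thbs1 (mean 7.14) was the member just inside that filter of 6.75, and Thbs2 just outside it. Taking probe set and filter from the mean of the signals gave the same member probe sets but 88 called genes in KO against WT in place of 160. The log2 mean was preferred after both counts had been seen.

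Models were fitted with limma 3.58.1 in R 4.3.3, with an intensity trend and Benjamini-Hochberg adjustment, and figures drawn with matplotlib 3.10.9. KO against WT and aged adjacent against young KO liver had sex as a term, lesions against adjacent liver the mouse, and females against males genotype. The fits left 1 residual degree of freedom for KO against WT, HCC and sex, and 2 for all lesions and aged liver. On simulated data the fits with 1 residual degree of freedom let through more false calls than their threshold states. Pooled mice and single tissues leave 1 or 2 arrays a group, so the number of arrays limits the precision, and p-values measure the spread between these arrays.

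The members and the other gene lists were chosen with earlier results of these data known. All members are reported. Of the pathway lists, called genes and those among the largest differences of one sign were named, and 7 marker genes also stand in a member or pathway list. Groups came from the labels. The lesion pairing rests on sex and age. Added constant, normalization, filter, probe set choice, variance trend, covariates, a model over all arrays and leaving out each array or pair were varied.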

Additional observations from a re-analysis of the deposited data

Results flagged for a closer look

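Members were looked at again where the female and male pairs differed in opposite directions by at least 0.5 log2 units each, a minimum set after the pair values had been seen. With 1 array a side these differences between the sexes were not tested. Lox, below the filter on dim genes, differed between KO and WT liver of 11 weeks by -1.93 in females and 1.696 in males. Timp1 differed by -0.5391 in females and 1.975 in males in the same comparison. Col15a1 differed between HCC and adjacent liver by 1.697 in the female and -0.7658 in the male. Groups held 1 or 2 arrays, so single arrays were not screened against their own group.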

How the results depend on the processing

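In KO against WT liver the count of members called was 1, with 160 genes called in all. It was 4 with quantile normalization (442 genes) and 3 with centring on the 75th percentile (395 genes, 263 higher and 132 lower, against 78 and 82). With probe sets without _a_, _s_ or _x_ it was 2 (268 genes). The count was 0 without the intensity trend (1 gene), without the sex term (2 genes) and in the model over all 10 arrays (1 gene). It was 1 with the mean of all probe sets (25 genes) and with probe sets and filter by the mean of signals (88 genes), the second chosen after seeing the data. In HCC against adjacent liver it was 0, and 2 with no filter (16 genes, against 9) and with probe sets without _a_, _s_ or _x_ (32 genes). The HCC fit called 1 gene with quantile normalization, 6 with the mean of all probe sets, and 0 without the intensity trend, in the model over all arrays and with no replicate block. Over all lesions no replicate block gave 0 members called and 0 genes, and leaving out a pair or array gave 0 to 9 members. Sex gave 47 genes with quantile normalization, 18 with the mean of all probe sets, 8 in the model over all arrays, aged tissues included, and 1 without the trend, against 30.

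The members' median in KO against WT liver was 0.05958 with centring on the 75th percentile, and -0.2501 to 0.2711 with an array left out. For females against males it was 0.1507 with quantile normalization, 0.1588 with centring, 0.1764 with probe sets without _a_, _s_ or _x_ and 0.1518 with the mean of all probe sets. In the model over all arrays, whose sex term also covers the aged tissues, it was -0.1492, and -0.3366 to 0.08736 with an array left out of that model. Leaving out an array or pair gave medians of 0.1319 to 0.8231 for HCC, 0.494 to 0.9973 for all lesions and -0.008 to 0.5759 for aged adjacent liver. Members called stayed at 0 for aged liver and for sex under every alternative run. The cause of these changes was not tested. An array left alone in its group was assumed to vary like the others.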
